A study of Mus musculus with 2 samples.

Results

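The 40 genes described here mark dividing cells. They were taken by symbol from a list of cell cycle genes, and all 40 were found among the 32285 genes of the expression matrices. For the description they were split by the phase in which they are known to peak: 16 genes of S phase, when DNA is copied, 21 genes of G2 and mitosis (G2/M), when the copies are separated, and 3 genes (Hmgb2, Tubb5 and Stmn1) that dividing cells raise but that many resting cells also express. The cells came from tumours of Hepa1-6, a mouse hepatoma line, grown in the liver of wild-type (WT) C57/BL6 mice. One library held cells from mice given anti-PD-1, an antibody against the inhibitory receptor PD-1 of T cells, and 1 library held cells from mice given an isotype control antibody. In both, live CD45+ cells, that is leukocytes, had been enriched with magnetic beads and sorted, so that tumour cells and other CD45-negative cells were meant to be left out. The number of mice and of pooled tumours behind each library, the doses and the times could not be read from the labels.

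A cell that divides first loads the MCM helicase onto its DNA, then makes nucleotides and copies the genome, and later condenses its chromosomes and pulls them apart. E2F transcription factors switch on the S-phase genes, and the MuvB-containing complexes act through CHR elements, together with NF-Y at CCAAT boxes, on most of the G2/M genes. Activated T cells are among the fastest dividing cells of the body, neutrophils divide only as precursors, and most monocytes and mature neutrophils have left the cycle when they enter a tissue.

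Cells were sorted into classes by marker genes, and the class names below stand for these gates: T, NK (natural killer), cDC1 and cDC2 (the 2 kinds of conventional dendritic cell), pDC (plasmacytoid dendritic cell), migratory DC, classical and non-classical monocyte, macrophage, and immature and mature neutrophil. Among the 10 leading genes of each of these classes were 4 to 6 of its own markers. Since the gates were set by these markers, this does not test the class names. After filters, 9711 cells of the anti-PD-1 library and 9278 of the isotype library were kept, with medians of 6303 and 6124 unique molecular identifiers (UMIs, each 1 counted transcript) per cell, and 140 cell barcodes occurred in both libraries. Because there is 1 library per treatment, no test between treatments was possible. All intervals below are 95% intervals for counting error only, they do not hold the variation between mice, and those of UMI ratios are too narrow because the UMIs of 1 cell are not independent. Levels are given as CPM, the UMIs of a gene summed over the cells of a class, relative to all UMIs of that class.

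With both libraries pooled, T cells, immature neutrophils and cDC1 had the highest G2/M-positive shares of the named classes, leaving aside the 9 plasma cells. To compare classes of unequal depth, each cell was thinned to 1000 UMIs, and a cell was called positive when it then held at least 2 genes of a list. Of 1011 T cells in both libraries, 144 (14.2%, exact binomial interval 12.1 to 16.6) were G2/M-positive and 235 (23.2%, 20.7 to 26.0) were S-positive. Immature neutrophils reached 26 of 157 for G2/M (16.6%, 11.1 to 23.3) and 22 of 157 for S (14.0%, 8.99 to 20.4). Of 259 cDC1, 20 were G2/M-positive (7.72%, 4.78 to 11.7) and 26 S-positive (10.0%, 6.66 to 14.4). The T and immature neutrophil intervals for G2/M overlap, and that of cDC1 lies below the T interval. The cDC1 interval overlaps that of NK cells, given below. In the isotype library alone the NK share (5 of 62) was above the cDC1 share (5 of 112).

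The other myeloid classes held few such cells. Of 667 cDC2, 11 were G2/M-positive (1.65%, 0.826 to 2.93) and 33 S-positive (4.95%, 3.43 to 6.88). Of 2410 macrophages, 36 (1.49%, 1.05 to 2.06) were G2/M-positive and 62 (2.57%, 1.98 to 3.29) S-positive, and of 5274 classical monocytes 34 (0.645%, 0.447 to 0.900) and 41 (0.777%, 0.558 to 1.05). NK cells stood between these and the T cells, with 6 of 110 G2/M-positive (5.45%, 2.03 to 11.5) and 18 of 110 S-positive (16.4%, 10.0 to 24.6). None of 266 non-classical monocytes and none of 90 pDC was G2/M-positive, and 2 of 378 migratory DC were. Smaller gates and unnamed cells held the rest: 3 of 85 B cells, 3 of 9 plasma cells, and, in the anti-PD-1 and isotype library, 8 of 57 and 2 of 21 cells with markers of several lineages and 7 of 1393 and 9 of 1342 cells that passed no gate.

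Transcripts set free by broken cells can be caught with any cell, so the share in cells that have left the cycle gives a background. Mature neutrophils had 4 G2/M-positive cells among 4473 (0.0894%, 0.0244 to 0.229) and 8 S-positive cells (0.179%, 0.0772 to 0.352). Their median depth was low, at 2057 and 1878.5 UMIs, and 222 and 328 of them were left out because they held fewer than 1000 UMIs. Non-classical monocytes, with medians of 6821 and 7302 UMIs, close to the 7333.5 and 6068 of T cells, had none among 149 and 117 cells, which allows a share of up to 2.01% and 2.56%. The share in T cells was thus above both backgrounds, and so were those in immature neutrophils and cDC1, while the classical monocyte share was above that of mature neutrophils but inside what the non-classical monocyte counts allow. Without thinning, 38.5% and 29.5% of T cells and 0.163% and 0.739% of mature neutrophils were G2/M-positive in the anti-PD-1 and isotype library.

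**Figure D1:**
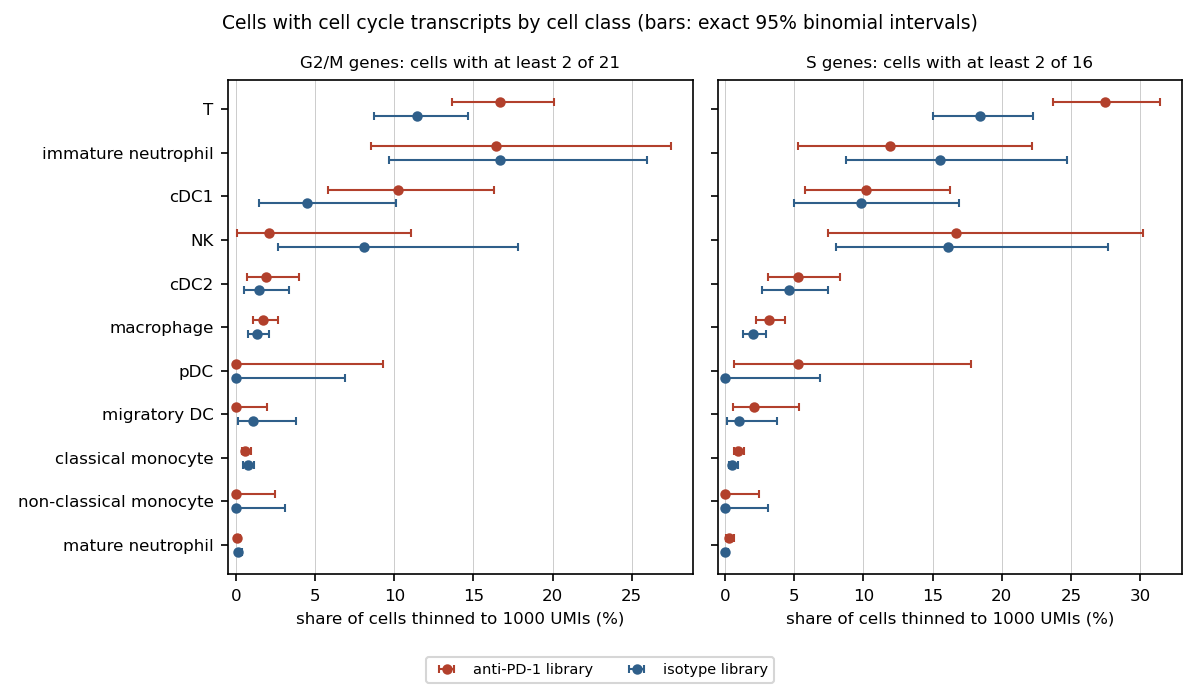
Share of cells, thinned to 1000 UMIs, with at least 2 of the 21 G2/M genes (left, in %) or 2 of the 16 S genes (right, in %), by class and library; bars are exact 95% binomial intervals. T cells, immature neutrophils and cDC1 stand apart from mature neutrophils, whose shares are 0.0449% and 0.134% for G2/M, and in T cells both shares are higher in the anti-PD-1 library.

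Although T cells contributed only 6.93% of all UMIs, they held a median of 42.1% of the UMIs of the 40 genes. This share ran from 15.8% for Pcna, the sliding clamp of DNA polymerase, to 54.4% for Dut, which removes dUTP from the nucleotide pool. T cells also made up 90 of 181 G2/M-positive cells of the anti-PD-1 library (49.7%, 42.2 to 57.2) and 54 of 134 of the isotype library (40.3%, 31.9 to 49.1). How far a gene separates cycling classes from resting ones varied among the 40. Set against mature neutrophils and non-classical monocytes together, Pclaf, the PCNA-associated factor, was higher in T cells by 8.58 on the log2 scale (interval 7.66 to 9.71), the highest of the 40, with 2244 UMIs in T cells and 9 in the resting cells. The kinesin motor gene Kif11 followed at 7.64. The lowest values belonged to Hmgb2, a chromatin protein (1.44), Pcna (1.61), Aurka, a spindle pole kinase (2.51), and Cenpa, the centromeric histone H3 (2.76).

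Cenpa and Pcna were also widespread in monocytes. Cenpa had UMIs in 30.5% and 30.6% of classical monocytes, and Pcna in 34.1% and 35.9%, against 2.23% and 2.02% for Top2a, the topoisomerase that untangles replicated DNA. Without both genes, 20 of 259 cDC1 were G2/M-positive, as with them. The counts in other classes were 131 of 1011 T cells (12.96%), 25 of 157 immature neutrophils, 27 macrophages (1.12%), 22 classical monocytes (0.417%) and 2 mature neutrophils. Immature neutrophils (15.9%) and T cells still had the highest G2/M shares, followed by cDC1. Without both genes, S-positive cells were 217 T cells, 22 immature neutrophils, 24 cDC1 and 24 cDC2. There were 42 such macrophages, 25 classical monocytes and 2 mature neutrophils. Except in immature neutrophils, these counts were below those given above, most in proportion in mature neutrophils, classical monocytes and macrophages. The S-only counts given below include Pcna.

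**Figure D2:**
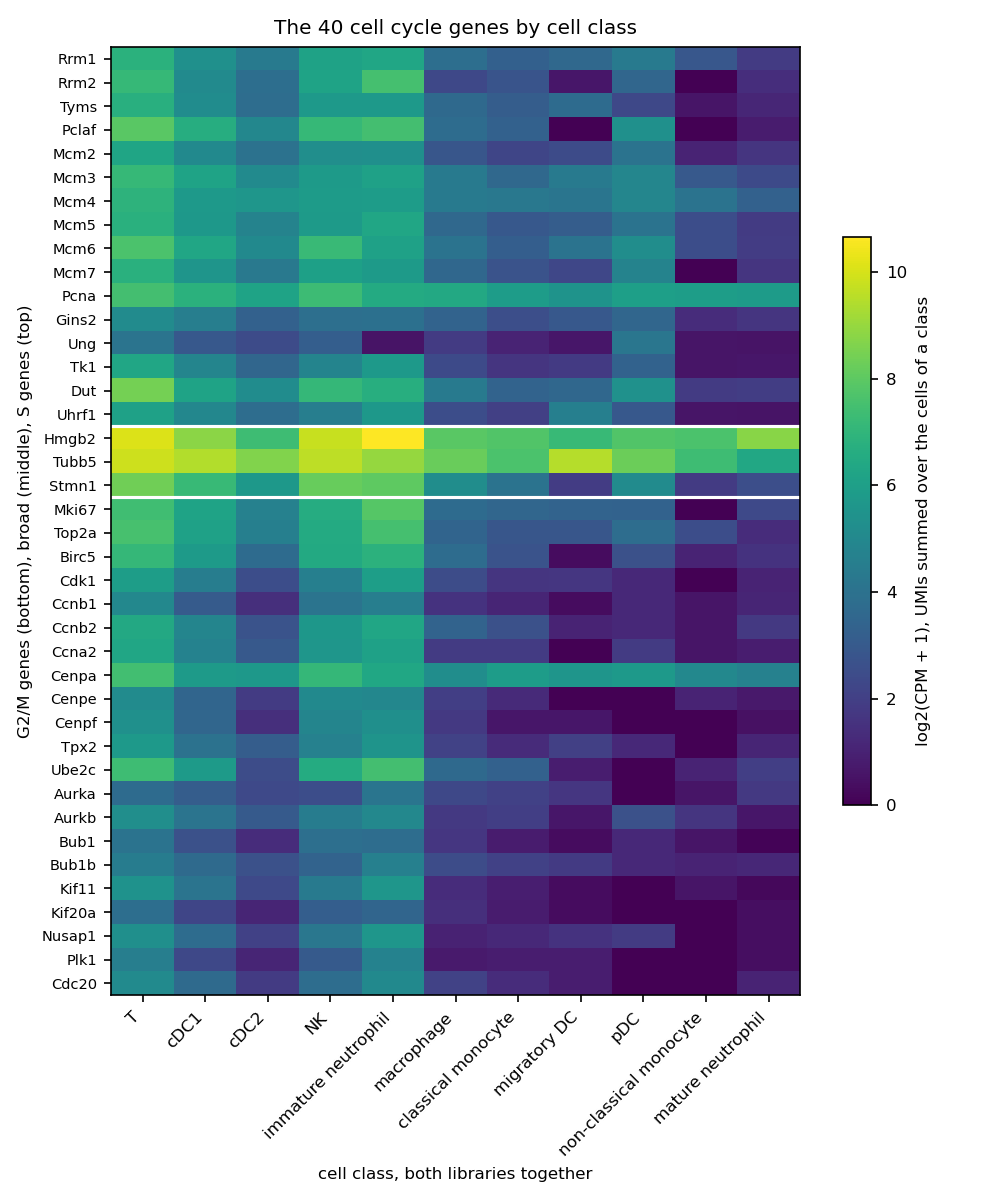
Level of each of the 40 genes (rows, S genes on top, broad genes in the middle, G2/M genes below) in each class (columns, both libraries together), as log2(CPM + 1) of UMIs summed over the cells. Most rows are bright in T cells, immature neutrophils and cDC1 and dark in mature neutrophils and non-classical monocytes, and Hmgb2, Tubb5, Pcna and Cenpa show signal in nearly every column.

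S and G2/M transcripts were not balanced alike in all classes. In T cells the S genes summed to 2372 and 1608 CPM and the G2/M genes to 1660 and 1125 CPM (anti-PD-1 and isotype), a log2 ratio of S over G2/M of 0.51 (0.48 to 0.55) and 0.52 (0.46 to 0.57). The S side was heavier in cDC2, at 1.04 (0.93 to 1.15) and 1.33 (1.19 to 1.47), and in macrophages, at 1.06 (0.96 to 1.16) and 0.80 (0.71 to 0.90). Immature neutrophils were the reverse, with more G2/M than S transcripts in both libraries, at -0.39 (-0.51 to -0.27) and -0.12 (-0.22 to -0.02). This was not particular to them. B cells, with only 41 and 44 cells, also held more G2/M than S transcripts in both libraries. So did NK cells in the isotype library and the few plasma cells in the anti-PD-1 library. Classical monocytes lay near T cells, at 0.51 and 0.41. In cDC1 the libraries differed, 0.51 (0.41 to 0.60) in the anti-PD-1 and 0.91 (0.79 to 1.03) in the isotype library. Without the gene with most UMIs in each list, the monocyte values moved to 0.87 and 0.68.

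Counted by cell, the phases divided as follows in both libraries together. Among T cells positive for either list, 130 were S-positive only, 105 were positive for both and 39 for G2/M only, so that 47.4% (41.4 to 53.5) were in the S-only group. All 11 G2/M-positive cDC2 were also S-positive, and 22 cDC2 were S-positive only. Macrophages had 56 S-only cells, 6 with both and 30 with G2/M only. Immature neutrophils had 13, 9 and 17, an S-only portion of 33.3% (19.1 to 50.2), and cDC1 19, 7 and 13. Classical monocytes had 33, 8 and 26. Mature neutrophils, the background, had 8 S-only cells and 4 G2/M-only cells and none with both. Cells positive for both lists were 10.4% of T cells, 5.73% of immature neutrophils, 3.64% of NK cells, 2.70% of cDC1 and 1.65% of cDC2.

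**Figure D3:**
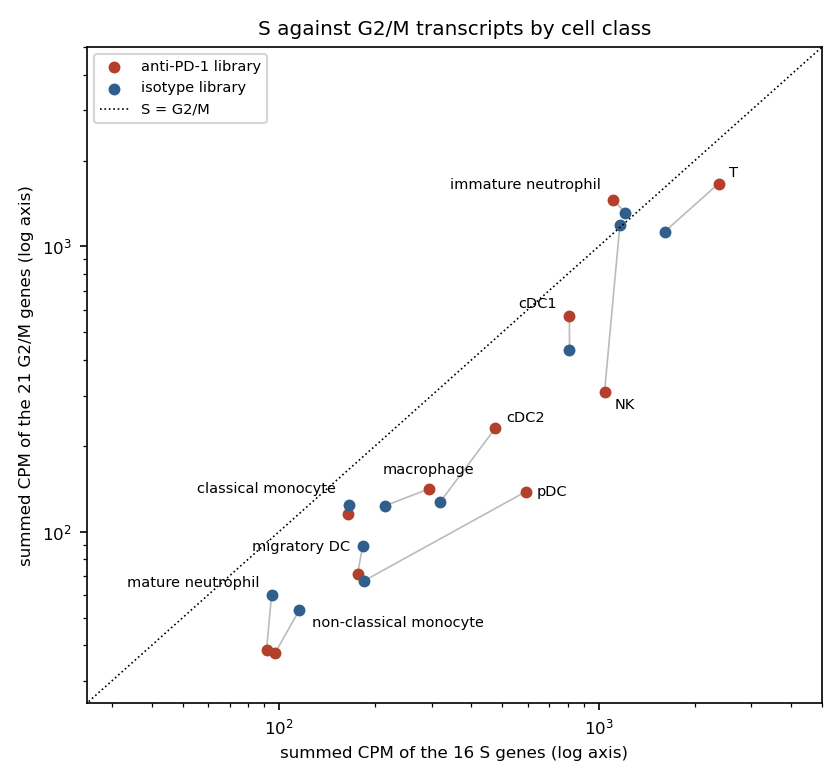
Summed CPM of the 16 S genes (x, log axis) against the 21 G2/M genes (y, log axis) for each class, with a line joining the 2 libraries; the dotted line marks equal sums. T cells lie at the top right and move along the diagonal between libraries, immature neutrophils lie above the dotted line in both, and NK cells move mainly along the y axis.

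Some of the members' promoters carry the elements named above, and 7 stretches of 140 bases are shown so that the S and G2/M genes that recur in the comparisons can be set side by side. They were chosen after the values were seen. For each gene, the 140 bases upstream of the start site that held most matches were taken. The matches in a stretch are therefore as many as any such stretch of the window holds. Of the 40 genes 33 matched an entry of RefSeq promoter windows (build GRCm38.p6, 250 bases before to 50 after the start). Letters searched on both strands were TTTGAA or TTCGAA for the CHR, CCAAT for the CCAAT box, and TTTGGCGC, TTTCCCGC, TTTCGCGC or TTTGCCGC for E2F, and TTCGAA is its own reverse complement. Matches are in capitals, where a match on the opposite strand reads as its reverse complement (ATTGG for CCAAT), and all sequences run 5′ to 3′ along the gene's strand. Counted from the RefSeq start site, the stretches span -140 to -1, except -188 to -49 for Mki67 and -153 to -14 for Mcm5.
Ccnb2, chr9:70421555-70421694, minus strand: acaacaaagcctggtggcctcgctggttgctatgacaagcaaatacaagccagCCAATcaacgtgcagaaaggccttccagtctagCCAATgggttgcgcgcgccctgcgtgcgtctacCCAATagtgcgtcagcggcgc
Cdk1, chr10:69352913-69353052, minus strand: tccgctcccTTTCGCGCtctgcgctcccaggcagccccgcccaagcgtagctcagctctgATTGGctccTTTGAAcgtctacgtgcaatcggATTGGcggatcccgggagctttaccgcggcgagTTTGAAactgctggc
Cdc20, chr4:118437344-118437483, minus strand: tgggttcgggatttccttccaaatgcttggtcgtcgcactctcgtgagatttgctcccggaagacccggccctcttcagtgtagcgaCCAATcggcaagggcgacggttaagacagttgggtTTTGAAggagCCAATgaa
Mki67, chr7:135716428-135716567, minus strand: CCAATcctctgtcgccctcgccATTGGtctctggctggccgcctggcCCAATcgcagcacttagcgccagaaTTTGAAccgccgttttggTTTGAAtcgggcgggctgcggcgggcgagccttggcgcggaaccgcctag
Mcm5, chr8:75109356-75109495, plus strand: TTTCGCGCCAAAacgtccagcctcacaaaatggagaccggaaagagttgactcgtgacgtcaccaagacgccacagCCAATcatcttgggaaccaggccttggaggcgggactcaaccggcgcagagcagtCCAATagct
Mcm6, chr1:128359706-128359845, minus strand: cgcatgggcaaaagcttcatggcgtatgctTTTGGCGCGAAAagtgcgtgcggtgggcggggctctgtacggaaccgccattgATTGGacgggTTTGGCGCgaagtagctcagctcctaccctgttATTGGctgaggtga
Pclaf, chr9:65890183-65890322, plus strand: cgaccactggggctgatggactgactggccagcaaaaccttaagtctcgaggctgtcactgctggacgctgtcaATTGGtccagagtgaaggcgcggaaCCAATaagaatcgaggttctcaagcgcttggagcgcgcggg

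In the stretches shown, CHR matches occur only in G2/M genes, and Ccnb2 and Pclaf, a G2/M and an S gene, both hold CCAAT matches alone. Cdk1, Cdc20 and Mki67 hold 2, 1 and 2 CHR matches in these stretches, with 2, 2 and 3 CCAAT matches, and Cdk1 also 1 E2F match. Ccnb2 holds 3 CCAAT matches and no CHR in the stretch shown. Mcm5 and Mcm6 hold 2 and 3 E2F matches, each with a pair that overlaps on opposite strands (the longer runs of capitals), and 2 CCAAT matches, and no CHR. Pclaf holds 2 CCAAT matches only.

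Over whole windows of 300 bases, 13 of 17 G2/M genes (76.5%) held a CHR match and 15 (88.2%) a CCAAT match, all 13 with a CHR also having a CCAAT, and 1 (5.88%, Cdk1) held an E2F match. Of 14 S genes, 2 (14.3%) held a CHR, 10 (71.4%) a CCAAT and 6 (42.9%) an E2F match. Among all 27025 genes of the table the shares were 21.7%, 41.1% and 2.61%. The other lists ran in parallel: 18 of 21 other mitosis genes (85.7%) held a CHR match and 7 of 14 other replication genes (50%) an E2F match. A match describes letters in a window and no factor's binding was measured, and a gene without a match only lacks these letters there.

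The anti-PD-1 library had more cycling T cells than the isotype library. G2/M-positive T cells were 90 of 539 (16.7%, 13.6 to 20.1) against 54 of 472 (11.4%, 8.71 to 14.7), 5.26 percentage points more (Newcombe interval of the difference 0.94 to 9.50). S-positive T cells were 148 (27.5%, 23.7 to 31.4) against 87 (18.4%, 15.0 to 22.2), a difference of 9.03 points (3.83 to 14.1). The summed level of the G2/M genes was higher by 0.56 on the log2 scale (0.51 to 0.61) and that of the S genes by the same 0.56 (0.52 to 0.60). In the anti-PD-1 library 32 cells held 50% of the G2/M UMIs of T cells, and in the isotype library 19. These values compare 2 libraries, and whether other pairs of tumours would differ likewise was not tested. T cells of the anti-PD-1 library were also deeper (7333.5 against 6068 UMIs), which thinning sets equal for the shares.

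All 40 genes were higher in the T cells of the anti-PD-1 library. Of the 40, 26 passed a log2 ratio of 0.5 upwards and none downwards, where 11.6% of all 10261 genes measured in T cells passed upwards and 7.68% downwards. The median ratio was 0.56 over the 40 genes and 0.08 over all genes. Scaling by trimmed means (TMM) lowered every T-cell ratio by 0.06, which leaves all 40 above 0 and 22 past 0.5. With a log2 ratio of 1 as the limit, no gene passed. S and G2/M genes contributed alike, with 11 of 16 and 14 of 21 past 0.5.

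Among the S genes, the 6 subunits of the MCM helicase that unwinds DNA at the fork were each higher. Mcm2 stood at 90.7 CPM in the anti-PD-1 and 52.1 CPM in the isotype T cells (0.80, 0.56 to 1.05), Mcm4 at 141 and 85.7 CPM (0.72) and Mcm6 at 230 and 157 CPM (0.56, 0.41 to 0.70), and Mcm3 had the smallest ratio of the 6, 0.45 (0.28 to 0.62). Of the genes of nucleotide supply, Tyms, thymidylate synthase, stood at 124 against 76.8 CPM (0.69), Dut at 396 against 260 CPM (0.61, 0.50 to 0.72), and the ribonucleotide reductase genes Rrm1 and Rrm2 had ratios of 0.46 and 0.56. Tk1, thymidine kinase, had a ratio of 0.48. Ung, which removes uracil out of DNA, had the highest ratio of the S genes (0.90, 0.37 to 1.46) on 110 against 40 UMIs. Pclaf stood at 278 against 193 CPM (0.53), Gins2, a subunit of the replicative helicase, had a ratio of 0.62, and Uhrf1, which carries DNA methylation through replication, 0.42. Pcna, at 191 against 153 CPM, had the lowest ratio of the 16 (0.32, 0.17 to 0.47).

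Among the G2/M genes, the mitotic kinase gene Cdk1 had the largest ratio. It stood at 74.1 CPM in the anti-PD-1 and 38.1 CPM in the isotype T cells, the highest ratio of the 40 genes (0.96, 0.68 to 1.24), and its transcripts were found in 22.2% against 11.8% of the T cells. The cyclin genes Ccnb2 (104 against 59.6 CPM, 0.80), Ccnb1 (0.72) and Ccna2 (0.63) were higher too. Ube2c, the ubiquitin-conjugating enzyme of the anaphase-promoting complex, stood at 192 against 114 CPM (0.75, 0.58 to 0.91), and Cdc20, an activator of that complex, had a ratio of 0.49. The kinase genes Aurkb (0.65), Plk1 (0.60), Bub1b (0.53) and Bub1 (0.47, -0.04 to 1.00) and the centromere genes Cenpf (0.60), Cenpa (0.51) and Cenpe (0.38) lay around the median. Mki67, the Ki-67 proliferation antigen, stood at 177 against 147 CPM, with a ratio of only 0.27 (0.12 to 0.43). Aurka, on 70 against 41 UMIs, had the lowest ratio of all (0.21, -0.36 to 0.81). Top2a (217 against 151 CPM, 0.52), Birc5, also called survivin (0.58), Nusap1 (0.61), Tpx2 (0.43), Kif11 (0.46) and Kif20a (0.57), all of which serve the spindle, chromosomes or cell division, lay between. The broad genes followed with Tubb5, a tubulin, at 1049.5 against 709.8 CPM (0.56), Stmn1, which destabilises microtubules (0.43), and Hmgb2 (0.26).

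**Figure D4:**
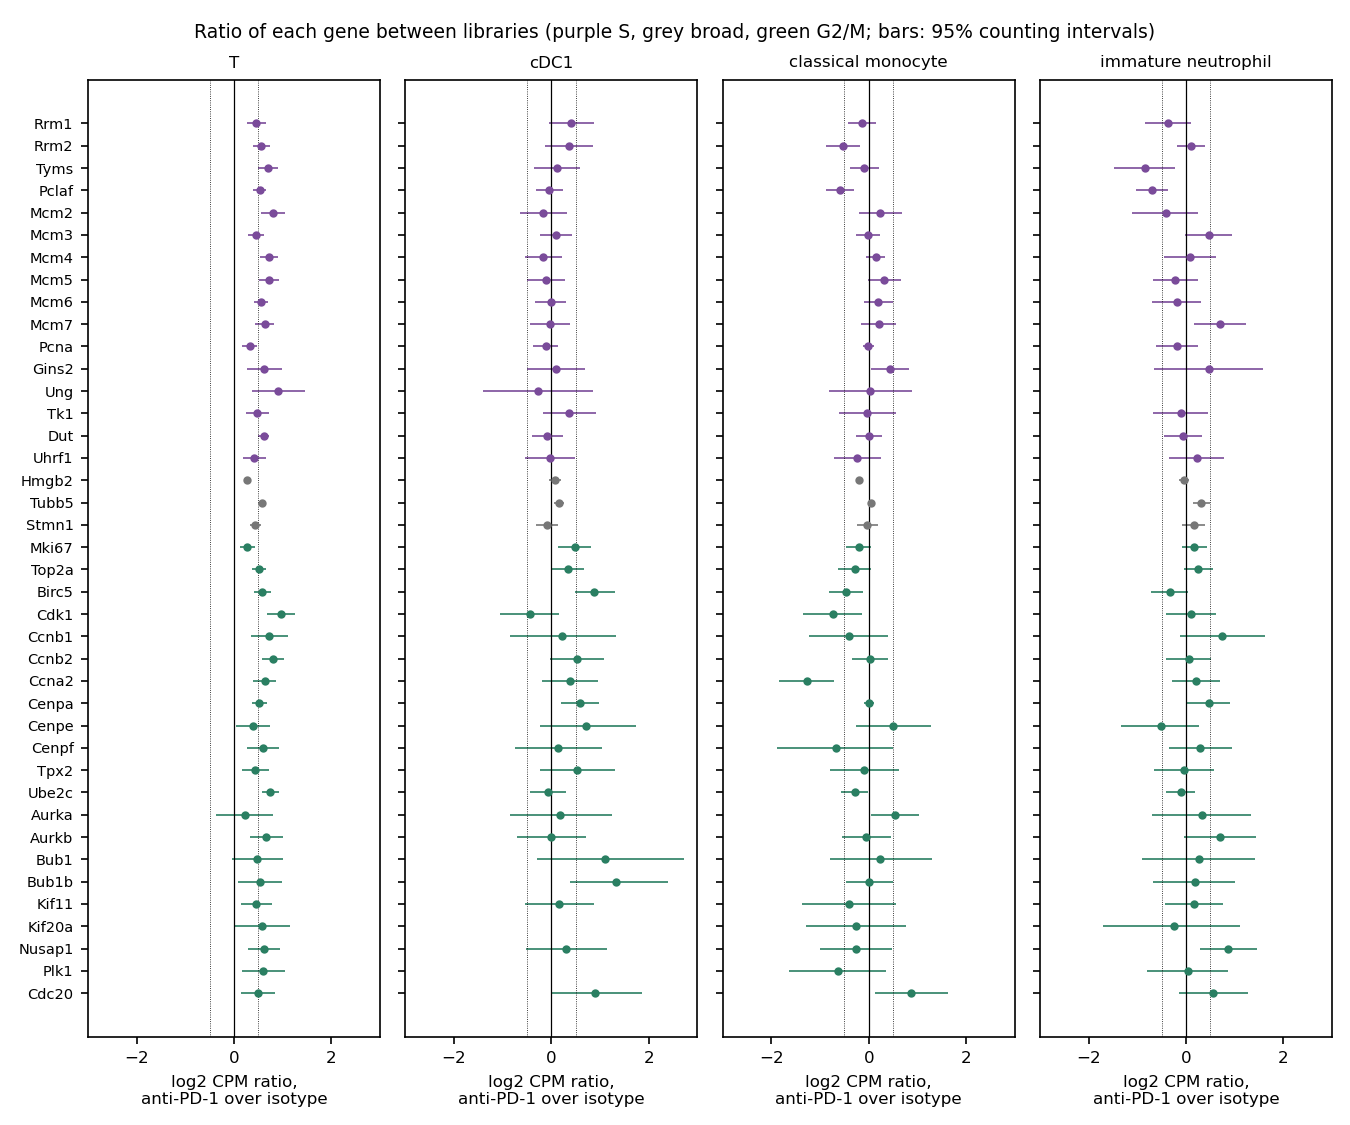
Log2 ratio of CPM, anti-PD-1 over isotype, of each gene (rows) in T cells, cDC1, classical monocytes and immature neutrophils; bars are 95% counting intervals, dotted lines mark 0.5 in either direction, and genes under 20 UMIs in a class are not drawn. In T cells all 40 points lie to the right of 0, between 0.21 and 0.96, while the other 3 panels hold points on both sides.

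Other cell cycle genes of T cells, taken from lists outside the 40, moved the same way where they serve replication and mitosis. All 22 other mitosis genes were higher with anti-PD-1 (median 0.49, 11 past 0.5), from Prc1, which bundles spindle microtubules (0.01), to Ckap2l, a spindle protein (1.08). Of 18 other replication genes 17 were higher (median 0.32, 5 past 0.5), with Cdc6, the helicase loader, at 25.7 against 11.0 CPM (1.22, 0.71 to 1.76), Rpa2, which coats single-stranded DNA, at 124 against 68.8 CPM (0.85), and Atad2 at -0.03. Genes of G1 entry moved less: 10 of 14 were higher, 2 passed 0.5, E2f1 stood at 30.5 against 18.8 CPM (0.70, 0.29 to 1.12), Myc at 0.01 and the cyclin gene Ccnd2 at -0.17. Of 12 measured cycle inhibitors, 6 were higher and 6 lower, with the antiproliferative gene Btg1 at -0.40 (-0.45 to -0.35), Cdkn1a (p21) at -0.38 and Cdkn1b (p27) at -0.28. Replication-dependent histone genes, whose transcripts mostly lack a poly(A) tail, had a median of 0.04, with 24 of 44 higher.

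Over both libraries together the G2/M-positive share was highest in CD8 T cells. Here 57 of 242 CD8 T cells were G2/M-positive (23.6%, 18.4 to 29.4), against 46 of 356 conventional CD4 T cells (12.9%, 9.62 to 16.9), 16 of 119 regulatory T cells (13.4%, 7.88 to 20.9) and 1 of 67 gamma-delta T cells (1.49%, 0.0378 to 8.04). The CD8 interval lies above that of conventional CD4 cells and overlaps that of regulatory T cells. By library, the CD8 share was 25.3% (44 of 174) in the anti-PD-1 and 19.1% (13 of 68) in the isotype library, a difference of 6.17 points whose interval (-6.21 to 16.5) holds 0. Without thinning, at median depths of 9564 and 8058 UMIs, the difference was 17.2 points (3.38 to 29.6). Conventional CD4 cells differed by 7.24 points (0.22 to 14.5), with 28 of 167 (16.8%) against 18 of 189 (9.52%). Regulatory T cells lay the other way, with 5 of 64 (7.81%) against 11 of 55 (20%), a difference of -12.2 points (-25.3 to 0.31), which was -5.68 points (-19.2 to 7.34) with cells thinned to 2000 UMIs.

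Single genes followed the subsets. In CD8 T cells 19 of the 40 genes passed 0.5 upwards and none downwards, where 19.3% and 9.2% of all genes did. Of these, Cenpf stood at 63.6 against 21.8 CPM (1.55, 0.79 to 2.40) and Ccna2 at 126 against 68.0 CPM (0.89). TMM scaling lowered every ratio in CD8 cells by 0.05, those of all genes alike. It took Birc5, Aurkb, Nusap1, Plk1, Mcm5 and Stmn1 below 0.5. The summed G2/M level of CD8 cells was 2077 against 1393 CPM (0.58, 0.48 to 0.68) and the S level 2866 against 2235 CPM (0.36, 0.28 to 0.44). Only 5 CD8 cells of the isotype library held 50% of its G2/M UMIs. Conventional CD4 cells had 24 genes past 0.5 upwards and none downwards, where 15.5% and 9% of all genes did, led by Ung (36 against 8 UMIs, 1.91, 0.78 to 3.23) and Cdk1 (75.1 against 23.3 CPM, 1.69, 1.14 to 2.27), and their summed G2/M level was 1613 against 962 CPM (0.75, 0.65 to 0.84).

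In regulatory T cells 17 of 33 measured genes passed 0.5 downwards and 1 (Mcm4, 0.61, -0.03 to 1.26) upwards, where 12.4% and 16.6% of all genes did. Mki67 stood at 87.6 against 235 CPM (-1.42, -1.97 to -0.90), Top2a at 83.5 against 207 CPM (-1.31) and Pclaf at 116 against 226 CPM (-0.96), while the helicase genes Mcm2 (0.05), Mcm3 (-0.07) and Mcm6 (0.04) were near 0. The summed G2/M level was 1010 against 1647 CPM (-0.71, -0.87 to -0.54), but 2 cells of the anti-PD-1 and 4 of the isotype library held 50% of these UMIs, and the ratio without the top cell of each library was -1.03. In gamma-delta T cells 1 cell held 111 of the 180 G2/M UMIs of the anti-PD-1 library.

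The make-up of the T cells differed between libraries. CD8 cells were 32.2% of T cells in the anti-PD-1 and 14.6% in the isotype library, and conventional CD4 cells 31.1% and 40.1%. T cells with no subset gene, or with those of several subsets, were 19.3% and 25.9%. Of these, 12 of 104 (11.5%) and 12 of 123 (9.76%) were G2/M-positive. They entered the next comparison as a part of their own, and the make-up inside it was not set equal. Each subset and this remaining part were given the same weight in both libraries. The G2/M share of T cells was then 15.7% against 12.5%, a difference of 3.21 points. The S share was 26.2% against 19.8%, a difference of 6.43 points. The crude differences of 5.26 and 9.03 points were thus larger than those at equal make-up.

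**Figure D5:**
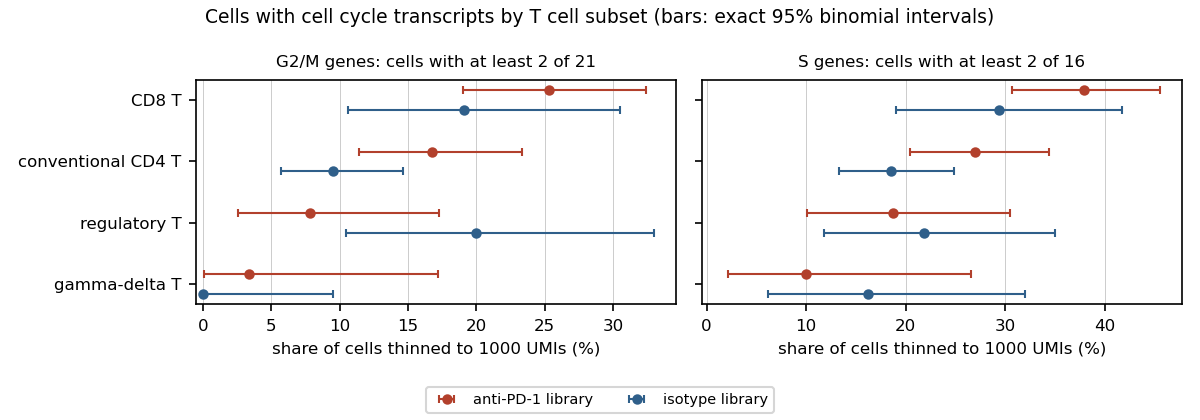
Share of cells, thinned to 1000 UMIs, with at least 2 G2/M genes (left, in %) or 2 S genes (right, in %), in 4 T cell subsets and both libraries, with exact 95% binomial intervals. CD8 T cells have the highest shares except for G2/M in the isotype library, where regulatory T cells reach 20% and CD8 cells 19.1%. The anti-PD-1 points lie to the right of the isotype points in CD8 and conventional CD4 cells and to the left in regulatory T cells, and all pairs of intervals overlap.

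G2/M-positive T cells were set beside T cells with no G2/M gene detected, 144 and 374 cells, as a description of the cells the genes pick out. The positive cells were deeper, with medians of 14716 and 5237.5 UMIs, so that levels were compared as CPM only. Of the genes of cytotoxic effector cells, Gzmk was higher in them by 1.49, Prf1, perforin, by 1.00 and Gzma by 0.47 on the log2 scale, and Gzmb, granzyme B, stood at 1119.8 against 637 CPM (0.81). Ifng, interferon gamma, was lower, at 347 against 498 CPM (-0.52, -0.65 to -0.39). CD8 cells were 57 of the 144 positive and 75 of the 374 negative T cells, and within CD8 cells the values were 0.56 for Gzmk, 0.55 for Prf1, 0.10 for Gzma, 0.26 for Gzmb and -1.20 for Ifng. Of the genes of naive and memory T cells, Il7r, the interleukin-7 receptor, lay at -2.84 and the transcription factor gene Tcf7 at -1.52. Within CD8 cells these 2 genes lay at -2.9 and -2.09, but not every gene of this kind was lower there. Of the inhibitory receptors, Havcr2 lay at 0.19, Pdcd1, which encodes PD-1, at -0.11 and Lag3 at -0.60. Btg1 lay at -1.79 and Ccnd2 at -0.98, whereas E2f1 (42.0 against 4.67 CPM) lay at 3.17. The other cycle inhibitors lay on both sides, with Rbl1 at 1.96 and Cdkn2c at 1.85, and Btg2 at -1.13 and Cdkn1b at -1.03. So did the other genes of G1 entry, with Cdk4 at 1.56, Ccne1 at 1.27 and Myc at -0.30.

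Outside all lists, the genes with the highest ratio in positive T cells had no UMI in the negative ones: Mcm10, a replication initiator (70 UMIs), Rad51ap1, of recombination repair (127), Foxm1, a transcription factor of mitotic genes (88), Neil3, a DNA glycosylase (82), and Fbxo5, an inhibitor of the anaphase-promoting complex (224). Markers of other cell types in positive T cells were at or below those in negative ones for most lists. The 8 macrophage markers summed to 3.71 against 19.1 CPM, and the 4 MHC class II genes to 349 against 896 CPM. The NK, cDC1 and pDC markers were higher, at 114 against 78.0, 140 against 110 and 27.2 against 24.3 CPM, with 5, 6 and 4 of 8 markers detected in positive cells. Among the CD8 cells the MHC class II genes were the other way, 428 against 199 CPM, and 4 of 57 positive cells held 71 UMIs of the MHC class II gene H2-Aa, 43 and 22 of them in 2 cells, against 1 UMI in 75 negative cells, and their part in the CD8 values was not tested.

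In cDC1, the dendritic cells that present tumour antigens to CD8 T cells, the G2/M sum was higher in the library from anti-PD-1 treatment and the S sum was not. The G2/M-positive share was 15 of 147 (10.2%, 5.82 to 16.3) against 5 of 112 (4.46%, 1.47 to 10.1), a difference of 5.74 points whose interval (-1.07 to 12.2) holds 0, and the S-positive share 10.2% against 9.82%. The summed G2/M level was 570 against 432 CPM (0.40, 0.28 to 0.52) on 7 and 4 cells that held 50% of the UMIs, and the S level 810 against 811 CPM (-0.00, -0.10 to 0.09). TMM scaling lowered every cDC1 ratio by 0.10. Of 38 measured genes 8 passed 0.5 upwards and none downwards, where 14.7% and 5.09% of all genes did, and 5 and 1 with TMM scaling.

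All 8 were G2/M genes. The spindle checkpoint kinase gene Bub1b stood at 15.8 against 6.28 CPM (1.33, 0.38 to 2.39) and Birc5 at 68.4 against 37.1 CPM (0.88, 0.48 to 1.30), and Bub1 (1.11), Cdc20 (0.90), Cenpe (0.72), Cenpa (0.58), Ccnb2 (0.52) and Tpx2 (0.52) followed. Cdk1, which led in T cells, lay the other way at 18.8 against 25.6 CPM (-0.45, -1.05 to 0.15). The helicase genes Mcm2 to Mcm7 ranged from -0.17 to 0.10. G2/M-positive cDC1 held none of the 8 T cell markers and all 8 cDC1 markers. Their leading genes outside all lists were Spc24, of the kinetochore (191 against 1.76 CPM in negative cDC1), and the histone variant gene H2afx (534 against 39.4 CPM), followed by Cenpw, Tcf19 and Rfc5.

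In cDC2 both sums were higher with anti-PD-1, while the difference in cell shares depended on the thinning. At 1000 UMIs, G2/M-positive cells were 6 of 323 (1.86%) and 5 of 344 (1.45%), and S-positive cells 5.26% and 4.65%, a difference of 0.61 points (-2.78 to 4.10). At 2000 UMIs the S difference was 5.59 points (0.90 to 10.4), and without thinning the G2/M difference was 5.24 points (-0.43 to 10.9). The G2/M sum was 231 against 127 CPM (0.86, 0.71 to 1.01) and the S sum 475 against 319 CPM (0.58, 0.48 to 0.67). In the anti-PD-1 library 7 cells held 50% of the G2/M UMIs, and 1 of them 150 of 1006. Of 35 measured genes 25 passed 0.5 upwards and none downwards, where 11.5% and 4.64% of all genes did. TMM scaling lowered all cDC2 ratios by 0.11 and left 22 past 0.5. Cenpe, which moves chromosomes, had the largest ratio (1.89, 0.41 to 3.68) on 18 against 5 UMIs. Birc5 stood at 18.8 against 6.23 CPM (1.59, 0.96 to 2.27), and the helicase genes Mcm5 (37.4 against 16.2 CPM, 1.20), Mcm6 (1.03) and Mcm3 (1.02) were higher, while Rrm2 lay at -0.13. The leading genes of the 11 positive cells were Tipin, H2afx, Rfc5, 9130015A21Rik and Ezh2.

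Migratory DC and pDC held few cycling cells. None of 188 migratory DC of the anti-PD-1 library was G2/M-positive, which allows up to 1.60%, against 2 of 190 (1.05%), and of 15 measured genes 2 passed 0.5 upwards and 2 downwards, where 11% and 8.28% of all genes did. None of 38 and 52 pDC was G2/M-positive, which allows up to 7.89% and 5.77%. In pDC of the anti-PD-1 library the S genes summed to 593 CPM against 184 CPM, but 1 cell held 149 of the 210 UMIs. In mature neutrophils, the background class, 2 of 20 measured genes passed 0.5 upwards and 7 downwards, where 7.88% and 7.71% of all genes did, on sums of 38.5 and 60.0 CPM for G2/M.

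NK cells were too few for a firm comparison. One of 48 was G2/M-positive in the anti-PD-1 library and 5 of 62 in the isotype library, a difference of -5.98 points (-15.6 to 3.95), and S-positive cells were 16.7% and 16.1%. The G2/M sum was 308 against 1193 CPM (-1.95, -2.27 to -1.65), and 1 and 3 cells held 50% of these UMIs. Of 27 measured genes 17 passed 0.5 downwards and 2 upwards, where 14.4% and 17.7% of all genes did. Ube2c had 2 against 78 UMIs and Birc5 6 against 70, and 5 G2/M genes (Aurka, Bub1b, Kif20a, Plk1 and Cdc20) had no UMI in the 48 cells. The 2 genes past 0.5 upwards were the helicase genes Mcm6 (71 against 56 UMIs, 0.95) and Mcm7 (31 against 25 UMIs, 0.92).

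In classical monocytes the shares of cycling cells differed by less than the counting error. G2/M-positive monocytes were 17 of 2913 (0.584%) and 17 of 2361 (0.720%), a difference of -0.14 points (-0.62 to 0.30), and S-positive ones 28 (0.961%) and 13 (0.551%), a difference of 0.41 points (-0.08 to 0.89). The G2/M sum was 115 against 124 CPM (-0.10, -0.18 to -0.03) and the S sum 164 against 165 CPM (-0.01, -0.07 to 0.06). Of the 40 genes 2 passed 0.5 upwards and 6 downwards, where 4.78% and 4.05% of all genes did. Downwards were Ccna2 (1.61 against 3.88 CPM, -1.27, -1.84 to -0.72), Cdk1 (-0.74), Cenpf (-0.67), Plk1 (-0.62), Pclaf (-0.58) and Rrm2 (-0.53), and upwards Cdc20 (0.86, 0.14 to 1.63) and Aurka (0.54). Replication-dependent histone genes were lower for 32 of 40 measured (median -0.33).

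Many of the cycling monocytes carried granule genes of early neutrophil and monocyte precursors. Of the 34 G2/M-positive monocytes, 18 (52.9%, 35.1 to 70.2) held at least 2 of Elane, Mpo, Prtn3 and Ctsg, the primary granule genes, against 119 of 5240 other monocytes (2.27%, 1.88 to 2.71). Negative monocytes are here the 3050 cells without any G2/M transcript before thinning, a smaller set than the 5240 others. Elane, neutrophil elastase, stood at 1241 against 1.82 CPM and Mpo, myeloperoxidase, at 577 against 0.238 CPM in positive and negative monocytes. Ctsg, Ms4a3 and Spc24 were the other leading genes. Among monocytes without this signature the G2/M-positive share was 16 of 5137 (0.311%, 0.178 to 0.505), and among the 137 with it 18 (13.1%, 7.98 to 19.97). The granule genes were counted before thinning, and the positive monocytes were deeper, with a median of 19815.5 UMIs against 8094 in negative ones. All 4 genes are also markers of the immature neutrophil gate, and the identity of these cells was not tested.

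Macrophages had more S transcripts in the anti-PD-1 library. S-positive macrophages were 37 of 1171 (3.16%) against 25 of 1239 (2.02%), a difference of 1.14 points (-0.13 to 2.47), and G2/M-positive ones 20 (1.71%) against 16 (1.29%), a difference of 0.42 points (-0.58 to 1.46). The S sum was 294 against 215 CPM (0.45, 0.37 to 0.53) and the G2/M sum 141 against 123 CPM (0.19, 0.08 to 0.31). Of 39 measured genes 19 passed 0.5 upwards (9 S, 9 G2/M and Stmn1) and none downwards, where 7.23% and 3.75% of all genes did. Pclaf had the largest ratio (19.3 against 7.53 CPM, 1.36, 0.97 to 1.76), then Aurkb, which corrects chromosome attachment (1.31, 0.40 to 2.27), Kif20a, a kinesin of cytokinesis (1.18), and Rrm2 (1.04). Ccnb2 lay at -0.28 and Cenpa at -0.24. None of the 36 G2/M-positive macrophages held 2 primary granule genes, and none held a T or NK marker. Their leading genes were Lyz1, Fcrls, Cenpw, Rdm1 and Ccdc34, with all 88 UMIs of Lyz1 in positive cells from the isotype library.

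Immature neutrophils had nearly equal G2/M shares in both libraries, 11 of 67 (16.4%) against 15 of 90 (16.7%), a difference of -0.25 points with a wide interval (-11.7 to 12.1). The S share was 8 of 67 (11.9%) against 14 of 90 (15.6%), a difference of -3.62 points (-14.2 to 7.98). The G2/M sum was 1458 against 1312 CPM (0.15, 0.05 to 0.26) on 4 and 8 cells that held 50% of the UMIs, and the S sum 1112 against 1209 CPM (-0.12, -0.24 to -0.01). TMM scaling, which lowered all ratios in this class by 0.17, turned the G2/M ratio to -0.016. Of 39 measured genes 5 passed 0.5 upwards and 3 downwards, where 19.7% and 7.66% of all genes did. Nusap1, a spindle protein, had the largest ratio (64.3 against 35.2 CPM, 0.87, 0.29 to 1.46), and Tyms (35.0 against 62.7 CPM, -0.84, -1.49 to -0.23) and Pclaf (129 against 209 CPM, -0.70, -1.03 to -0.38) the lowest. Ung had 1 UMI in all 158 immature neutrophils.

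Within immature neutrophils, S-positive cells were mostly those with primary granule genes, which precursors make. At least 2 primary granule genes, counted before thinning, were found in 29 of the cells that were thinned. Of these 29, 9 were G2/M-positive (31.0%, 15.3 to 50.8), against 17 of 128 cells without them (13.3%, 7.93 to 20.4), 2 intervals that overlap. The G2/M-positive cells were also deeper, with a median of 21540.5 UMIs against 9484.5 in cells without a G2/M transcript. Of the S-positive cells, there were 6 of 13 (46.2%) and 9 of 16 (56.3%) among cells with the signature and 2 of 54 (3.70%) and 5 of 74 (6.76%) among those without it, in the anti-PD-1 and isotype library. Elane had 1994 UMIs and Mpo 457 in the 26 G2/M-positive cells and none in 88 cells without a G2/M transcript. Both genes are also among the 9 markers of this gate.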

How the data were processed

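Live CD45+ cells of Hepa1-6 liver tumours were profiled with 10x 3′ chemistry. The deposited matrices hold counts of UMIs per gene and cell, made by the authors with Cell Ranger, version 2.1.1 on mm10 per the submitters' processing notes and version 5.0.1 per the file headers. The members and all lists were chosen with earlier results of these data known.

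Of 10149 and 9683 barcodes (72148493 and 67520433 UMIs), 10014 and 9566 had at least 500 UMIs and 200 genes and at most 10% mitochondrial UMIs. The automatic threshold of the doublet caller Scrublet (in scanpy 1.11.5) marked 1 cell per library, so cells with a score above 0.25 (303 and 288) were left out instead. A cell entered the class with the largest portion of its markers detected, at least 3 of them, and ties stayed unassigned. Neutrophils with 3 immature markers were immature, and cells with 50% or more of the markers of another lineage were set apart as mixed. Cells were thinned to 1000 UMIs with a fixed seed. Genes with at least 20 UMIs in a class were measured, and 0.5 was the log2 limit. Shares have exact Clopper-Pearson intervals, differences Newcombe intervals and ratios exact conditional binomial intervals (SciPy 1.17.1). The limit from a count of 0 is 3 counts of the total. TMM factors came from edgeR 4.0.16. Scripts were tested on simulated data. The text names every member, genes of the other lists, and per cycling class up to 5 genes outside all lists with at least 100 UMIs and the highest ratio of positive over negative cells. Dense copies of the same matrices were not used. 1 gene of the T cell state list is not reported here.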

Additional observations from a re-analysis of the deposited data

How the results depend on the processing

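Of the alternatives to the values behind the main comparisons, 148 stayed inside the counting interval of the main value, 21 moved outside and 1 reversed. For counts of genes, which have no such interval, a fixed fold was the limit instead. A reversal was called only where the main interval excluded 0. Values whose interval holds 0 could therefore change sign within the 148. In T cells the G2/M difference stayed between 4.96 and 8.98 points and the S difference between 5.92 and 9.07, over these settings of filters, gates and thinning; at equal subset make-up they were 3.21 and 6.43 points. In T cells 22 to 26 genes passed the fold under all settings run except a log2 limit of 1. TMM scaling gave 0.50 for both T sums, -0.10 for the cDC1 S sum, 0.47 for the cDC2 S sum, -0.016 (reversed) and -0.29 for the G2/M and S sums of immature neutrophils, and 6 genes lower there. Thinning to 2000 UMIs gave a cDC2 S difference of 5.59 points. With each cell's CPM averaged, the G2/M ratios were 0.55 in cDC1, 0.64 in cDC2 and 0.68 in CD8 cells, and the CD8 S ratio 0.62. With a limit of 1, 0 genes passed in T cells, and 0 upwards and 0 downwards in immature neutrophils. Gates with 1 more marker gave 8 genes higher in immature neutrophils. Alternatives chosen after seeing the data were no thinning (9.06 points for cDC1 S, 5.24 for cDC2 G2/M, 4.40 for cDC2 S and 17.2 for CD8 G2/M), leaving out Cenpa and Pcna, and leaving out the top cell of each library (0.53 for cDC1 G2/M and 0.44 for CD8 S). In mature neutrophils the S difference of 0.27 points became 0 when 3 genes were required. Why these values moved was not tested. No paired analysis was possible because each treatment has 1 library. The number of cells limits the sums most: 1 to 4 cells held 50% of the G2/M UMIs in at least 1 library of NK cells, pDC, cDC1, immature neutrophils, regulatory and gamma-delta T cells.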
